A study of Mus musculus with 15 samples.

Results

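Neutrophils pack their antimicrobial proteins into granules that are made in order during maturation, and the genes of the secondary (specific) granules and of the late neutrophil stage are switched on after the progenitor stage. The 10 genes described here belong to that late programme: Ltf, Camp, Ngp, Lcn2, Cd177, Chil3, Pglyrp1, Retnlg, Wfdc21 and Orm1. They are a named list, each represented by its RefSeq row with the highest mean count, out of 20453 genes in the deposited count table. All 10 passed the filter on low counts, which kept 14542 genes. Granulocyte-macrophage progenitors (GMPs) make the primary granule proteins, such as myeloperoxidase, and carry little RNA of the secondary granules. C/EBP transcription factors, C/EBP epsilon above all, are known to drive secondary granule genes, and lactoferrin and cathelicidin RNA is a textbook mark of the myelocyte stage.

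Sorted bone marrow cells of strain C57BL/6 were profiled by RNA-seq. A cDNA of human MLL-AF9, a fusion of a histone methyltransferase with a protein of transcription elongation complexes that drives acute myeloid leukaemia, had been recombined into A2Lox-cre cells. Selected clones gave chimaeras that were backcrossed to C57BL/6 for up to 10 generations, and double heterozygous females were used. The labels describe magnetic removal of cells bearing Ter119, Ly-6G (Gr-1), Cd45R/B220, Cd11b or Cd5, then sorting of lineage-negative (Lin-) cells. GMPs were gated as c-Kit+, Cd34+ and FcγRII/III-high, without Sca-1 or IL-7Rα. Long-term haematopoietic stem cells were gated as c-Kit+, Sca-1+ and Cd150+, without Cd34 or Cd48. The 4 groups compared were wtGMP (4 libraries), whose name reads as wild-type GMPs, LTearly (4), LTlate (3) and BMTGMP (3). The labels do not spell out the last 3 names. From what is known of the study they are read here as leukaemias that began in long-term stem cells, with an early or a late onset, and in GMPs, and they are called the MLL-AF9 groups. Ages, times, any doxycycline given to the mice, the number of clones and the gate behind each library are not given in the sources used here. The titles of the MLL-AF9 libraries carry codes that differ within each group, and their meaning is not given. The part after gr recurs in some: D2 in LTearly replicate 1 and LTlate replicate 3, LT3 in LTearly replicate 3, LTlate replicate 2 and 1 further library described below, and V in BMTGMP replicates 1 and 2. Nothing states that the libraries of a group came from separate mice, so p-values measure the spread between these libraries, which may in part be technical. The MLL-AF9 groups against wtGMP ask how leukaemic cells differ from normal progenitors, and the comparisons among them ask whether the cell of origin and the onset leave a trace.

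Depth differed between groups. Counts on the transcript kept for each named gene ran from 2469470 to 6978756 in wtGMP and from 2695917 to 8695136 in LTearly. They ran from 11569408 to 15093009 in LTlate and from 4556108 to 10712743 in BMTGMP. Counts on other transcripts of the same genes are not in these totals. In wtGMP replicate 1 the kept transcripts held 6978756 of 9814539 deposited counts. Levels below are in CPM, read counts per 1000000 of the TMM-scaled library total, and a difference is a log2 fold change ± standard error (SE) from edgeR's quasi-likelihood test over 14542 genes. A gene is called when its p, adjusted over all those genes by the Benjamini-Hochberg method, is under 0.05. A further library, M2grLT3, carries LTearly in its title and LTlate in its column name, so its values stand apart from every comparison. The sorted cells differed in some genes of the gates. Of 7 tested, 2 were lower than wtGMP in LTearly (8.93% of all genes were) and 1 in BMTGMP (2.17%), and the rest were not called. In LTlate 1 was lower (3.25%) and 2 were higher (7.53%). The higher genes encode FcγRII/III: Fcgr3 by 0.72 ± 0.21 (edgeR, adjusted p = 0.0237) and Fcgr2b by 0.86 ± 0.25 (0.0248). Kit, which encodes c-Kit, had a mean of 193 CPM in wtGMP against 51.3 in LTearly and 22.8 in LTlate, both called lower, and 66.7 in BMTGMP, not called lower. Cd34 had means of 249, 32.6, 115 and 4.75 CPM in the same order of groups, and was called lower in LTearly and BMTGMP.

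The promoters of the 4 granule genes Ltf, Ngp, Camp and Lcn2 are shown because these genes lead the list of antimicrobial proteins. The 250 bases before each start site are from RefSeq (GRCm38.p6), chr9:111019042-111019291 on the plus strand, chr9:110419558-110419807 on the plus strand, chr9:109849457-109849706 on the minus strand and chr2:32387740-32387989 on the minus strand. Capitals mark matches to the C/EBP core TTNNGNAA or its reverse complement TTNCNNAA, and, in Lcn2, the PU.1 core GAGGAAG read on the other strand as CTTCCTC.
Ltf: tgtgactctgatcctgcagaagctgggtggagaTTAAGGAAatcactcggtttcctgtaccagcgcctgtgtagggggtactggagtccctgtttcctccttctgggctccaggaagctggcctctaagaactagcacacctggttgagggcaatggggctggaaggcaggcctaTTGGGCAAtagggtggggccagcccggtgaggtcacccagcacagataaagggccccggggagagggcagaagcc
Ngp: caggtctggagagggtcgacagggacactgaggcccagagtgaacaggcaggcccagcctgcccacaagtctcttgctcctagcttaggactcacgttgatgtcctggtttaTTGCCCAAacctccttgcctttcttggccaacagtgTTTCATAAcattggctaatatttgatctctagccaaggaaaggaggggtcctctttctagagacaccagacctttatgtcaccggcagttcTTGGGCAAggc
Camp: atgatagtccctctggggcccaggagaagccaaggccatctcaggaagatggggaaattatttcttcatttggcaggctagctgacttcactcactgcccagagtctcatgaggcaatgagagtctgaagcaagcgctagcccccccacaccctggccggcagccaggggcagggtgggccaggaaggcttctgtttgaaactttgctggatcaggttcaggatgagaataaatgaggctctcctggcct
Lcn2: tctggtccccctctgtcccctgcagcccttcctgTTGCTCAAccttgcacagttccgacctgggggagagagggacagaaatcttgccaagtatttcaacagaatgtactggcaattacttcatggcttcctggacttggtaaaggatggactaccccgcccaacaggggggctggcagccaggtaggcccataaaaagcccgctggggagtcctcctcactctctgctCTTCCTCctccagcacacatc
Ltf held 2 matches to the C/EBP core, at 209 and 67 bases before the start site, and Ngp held 3, the nearest at 3 bases. Lcn2 held 1 match to each core, at 208 and 14 bases, and these did not overlap. Camp held neither in this window. RefSeq promoters were found for 8 of the 10 genes (not Wfdc21 and Orm1). The C/EBP core occurred in 6 of these 8, against 36.9% of 27025 promoters of the same length. The PU.1 core occurred in 2 of 8, Lcn2 and Pglyrp1, against 10.4%. A match of letters describes the sequence and is not a measured binding site.

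The 10 genes were almost silent in wtGMP and formed a visible part of the RNA in the MLL-AF9 groups. Together they took 0.00749% to 0.0179% of counts on the kept transcripts in the wtGMP libraries. The share was 1.35% to 1.86% in the LTearly libraries, 0.366% to 0.941% in those of LTlate and 0.124% to 0.668% in those of BMTGMP. Each of the 10 genes had 1 transcript in the deposited data, so their shares of all deposited counts are lower. The mean level fell in the order LTearly, LTlate, BMTGMP, wtGMP at all 10 genes. Against wtGMP the test called 10 of 10 higher in LTearly (11.1% of all genes were called higher), 9 of 10 in LTlate (7.53%) and 8 of 10 in BMTGMP (4.41%). The 8 in BMTGMP include Orm1, which had no counts in wtGMP and passed the filter on low counts only with other groups in the fit. With BMTGMP and wtGMP alone 6 were called, without Orm1 and Chil3. The 3 comparisons share the wtGMP libraries. At 8 of the 10 genes, all but Retnlg and Wfdc21, the lowest of the 10 MLL-AF9 libraries exceeded the highest wtGMP library, which held for 4.57% of all genes. In sorted bulk RNA, more cells of a late type and more RNA per cell cannot be told apart.

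**Figure D1:**
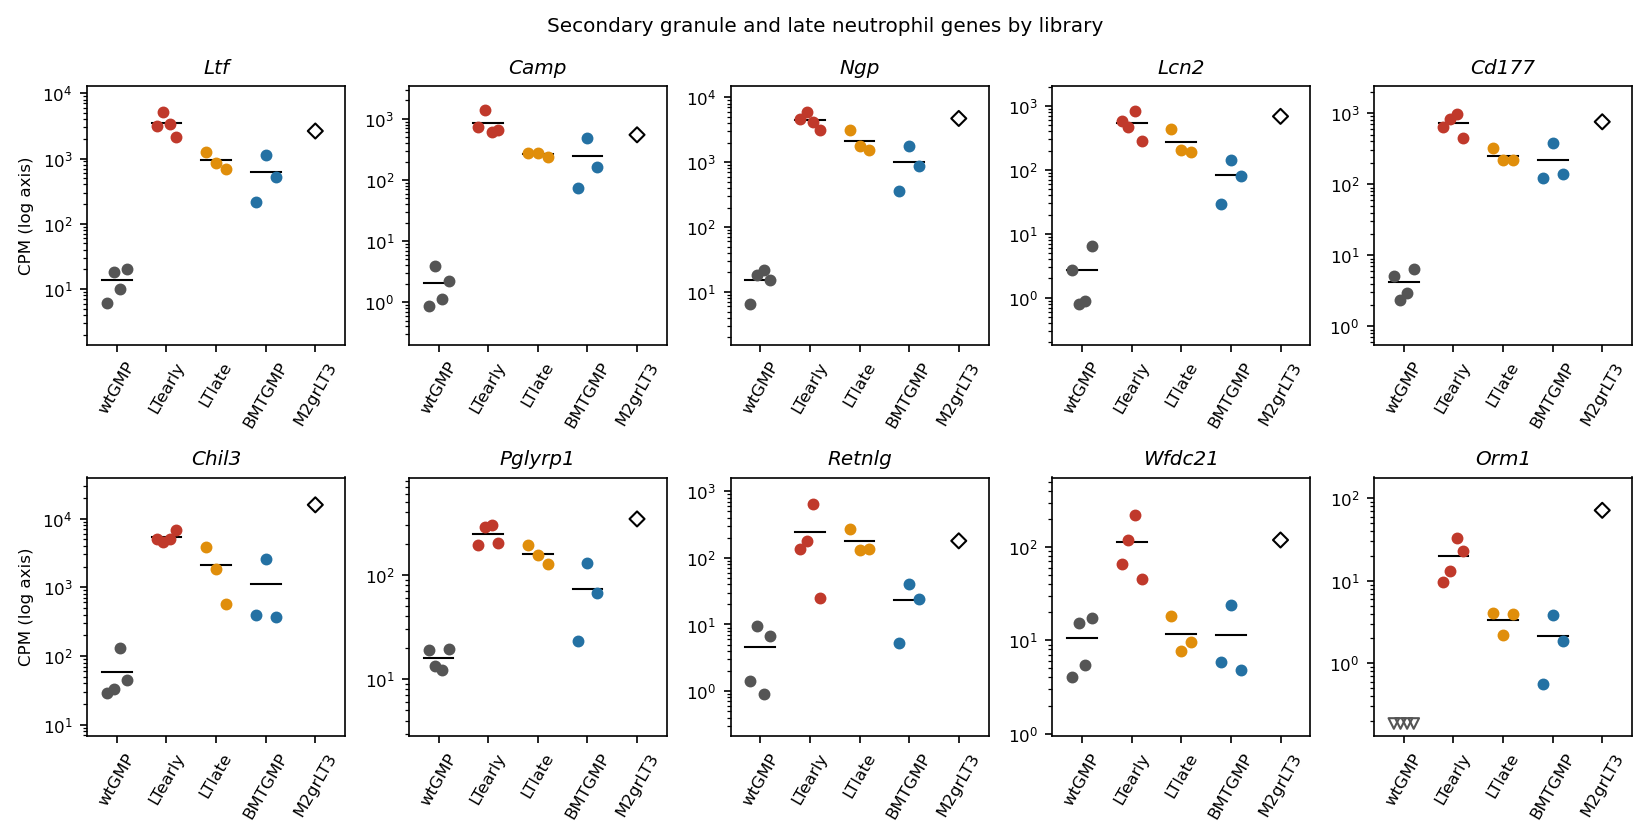
CPM of each gene (log axis) in every library by group, with a bar at the group mean, triangles at the foot for libraries without counts and an open diamond for the library M2grLT3. All MLL-AF9 libraries lie above all wtGMP libraries except at Retnlg and Wfdc21, and in BMTGMP the second point, replicate 2, is the highest at every gene.

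The antimicrobial proteins of the secondary granules showed the largest rises in LTearly among the genes with counts in wtGMP. Ltf encodes lactoferrin, which withholds iron from microbes. Its level was 6.02, 18.1, 10.1 and 20.6 CPM in wtGMP replicates 1 to 4, and 3168, 5157, 3433 and 2122 CPM in LTearly replicates 1 to 4. It was 1271, 843 and 700.5 CPM in LTlate replicates 2, 3 and 4, and 217, 1126 and 517 CPM in BMTGMP replicates 1, 2 and 4, and the same replicate order is used for every gene that follows. The lowest MLL-AF9 library, BMTGMP replicate 1, was still above the highest wtGMP library. Ltf rose by 8.04 ± 0.70 in LTearly (edgeR, adjusted p = 1.68e-05), by 6.16 ± 0.66 in LTlate (adjusted p = 0.000143) and by 5.56 ± 0.65 in BMTGMP (adjusted p = 0.000346), all log2 differences from wtGMP.

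Camp encodes the cathelicidin precursor, from which an antimicrobial peptide is cut. Camp stood at 0.860, 3.94, 1.12 and 2.22 CPM in wtGMP and at 736, 1379, 619.6 and 654 CPM in LTearly. In LTlate its 3 libraries gave 275, 276 and 241 CPM, and in BMTGMP they gave 73.3, 492 and 162 CPM. The LTlate libraries were nearly alike, with a highest value 1.15 times the lowest, while BMTGMP replicate 2 was above all of them. Of the genes with counts in wtGMP, Camp had the largest rise of the list in each group: 8.91 ± 0.80 in LTearly (edgeR, adjusted p = 1.93e-05), 7.23 ± 0.78 in LTlate (0.000138) and 7.11 ± 0.77 in BMTGMP (0.000203).

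Ngp encodes neutrophilic granule protein, a cystatin-like component of these granules. Ngp was at 6.60, 18.1, 21.5 and 15.2 CPM in wtGMP and at 4542, 5955, 4123 and 3172 CPM in LTearly. LTlate libraries held 3094, 1790 and 1534 CPM, and BMTGMP libraries held 360.5, 1749 and 885 CPM. All LTearly libraries were above all LTlate libraries, although LTearly replicate 4 and LTlate replicate 2 were close. Ngp rose over wtGMP by 8.21 ± 0.66 in LTearly (edgeR, adjusted p = 8.55e-06), 7.15 ± 0.64 in LTlate (3.44e-05) and 6.05 ± 0.61 in BMTGMP (0.000126).

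Lcn2 encodes lipocalin 2, which binds bacterial siderophores. Lcn2 read 2.72, 0.788, 0.896 and 6.33 CPM in wtGMP and 581, 468, 818.5 and 285 CPM in LTearly. It read 433, 207 and 187 CPM in LTlate and 29.7, 142.5 and 79.8 CPM in BMTGMP. LTearly and LTlate overlapped, and every library of either was above every BMTGMP library. The rise over wtGMP was 7.65 ± 0.79 in LTearly (edgeR, adjusted p = 5.25e-05), 6.69 ± 0.78 in LTlate (0.00024) and 4.97 ± 0.75 in BMTGMP (0.00211).

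The next genes encode a surface protein, a granule protein that binds bacterial cell walls and a secreted lectin. Cd177 is a glycoprotein on the neutrophil surface and in its granules. Cd177 measured 5.16, 2.36, 2.91 and 6.33 CPM in wtGMP and 642, 841, 966 and 454 CPM in LTearly. It measured 323, 216 and 221 CPM in LTlate and 122, 386 and 141 CPM in BMTGMP. LTearly stood above the other groups without overlap, and LTlate lay within the range of BMTGMP. Cd177 rose over wtGMP by 7.40 ± 0.52 in LTearly (edgeR, adjusted p = 7.64e-07), 5.88 ± 0.50 in LTlate (7.84e-06) and 5.65 ± 0.50 in BMTGMP (1.67e-05).

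Pglyrp1 encodes a peptidoglycan recognition protein. Pglyrp1 was the steadiest gene inside wtGMP, at 19.2, 13.4, 12.1 and 19.3 CPM, and reached 196, 289.9, 299.9 and 201.5 CPM in LTearly. It reached 192, 154 and 127 CPM in LTlate and 23.25, 131 and 67.05 CPM in BMTGMP. BMTGMP replicate 1 was only just above the highest wtGMP library. Pglyrp1 rose by 3.94 ± 0.43 in LTearly (edgeR, adjusted p = 1.81e-05), 3.29 ± 0.44 in LTlate (0.000174) and 2.19 ± 0.43 in BMTGMP (0.00536).

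Chil3 encodes Ym1, a chitinase-like lectin that neutrophil precursors and macrophages secrete. Chil3 had 29.0, 33.1, 129.8 and 45.0 CPM in wtGMP and 5088, 4502, 4983 and 6764 CPM in LTearly. It had 3848, 1846 and 563 CPM in LTlate and 395.5, 2534 and 364 CPM in BMTGMP. The LTearly libraries were close to one another, whereas the highest value was 6.83 times the lowest in LTlate and 6.96 times in BMTGMP. The rise over wtGMP was 6.49 ± 0.98 in LTearly (edgeR, adjusted p = 0.000797), 5.13 ± 0.94 in LTlate (0.00485) and 4.21 ± 0.90 in BMTGMP (0.0183). The BMTGMP call was lost when wtGMP replicate 1, 2 or 4 or BMTGMP replicate 2 was left out (adjusted p = 0.0551, 0.0576, 0.0627 and 0.078), and with those 2 groups alone in the fit (0.0714). Reads with several hits were divided among them, and Chil4 is a close paralog: it held 4.14% to 6.54% of the Chil3 count in the 10 MLL-AF9 libraries and 4.23% to 14.7% in wtGMP. How many reads these genes share was not measured, so the split between them is uncertain.

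The last 3 genes encode small secreted proteins or a plasma protein. Retnlg encodes a resistin-like cytokine of granulocytes. Retnlg showed 1.43, 9.45, 0.896 and 6.65 CPM in wtGMP and 137, 179.6, 647 and 25.2 CPM in LTearly, a spread of 25.6 times within LTearly. It showed 274, 133.5 and 137.5 CPM in LTlate and 5.30, 40.1 and 23.9 CPM in BMTGMP. BMTGMP overlapped wtGMP, and LTearly replicate 4 fell among the BMTGMP libraries. Retnlg rose by 5.93 ± 1.20 in LTearly (edgeR, adjusted p = 0.00523) and by 5.49 ± 1.21 in LTlate (0.0141), and its difference of 2.51 ± 1.18 in BMTGMP was not called (0.275). Without LTlate replicate 2 the LTlate call was lost (0.0505).

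Wfdc21 encodes a small protein of the WFDC family. Wfdc21 registered 4.02, 15.4, 5.38 and 17.4 CPM in wtGMP and 65.1, 119, 222 and 44.9 CPM in LTearly. It registered 18.1, 7.67 and 9.65 CPM in LTlate and 5.86, 23.7 and 4.82 CPM in BMTGMP. LTearly lay above all other groups, and the other 3 groups overlapped one another. Wfdc21 rose in LTearly by 3.46 ± 0.73 (edgeR, adjusted p = 0.0048). Its differences from wtGMP in LTlate (0.21 ± 0.74, adjusted p = 0.928) and BMTGMP (0.18 ± 0.74, adjusted p = 0.954) were not called. Slpi, another gene of the WFDC family, had a different order, with a mean of 40.1 CPM in wtGMP, 123 CPM in LTearly, 234 CPM in LTlate and 6.64 CPM in BMTGMP. It was called higher than wtGMP in LTearly and LTlate and lower in BMTGMP.

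Orm1 encodes orosomucoid, an acute phase plasma protein made mainly by the liver and also by myeloid cells. Orm1 had no counts in the 4 wtGMP libraries, and stood at 9.79, 13.1, 33.0 and 23.0 CPM in LTearly. It had 4.08, 2.18 and 3.91 CPM in LTlate and 0.558, 3.89 and 1.89 CPM in BMTGMP, the last from 6, 30 and 9 counts. LTearly was above LTlate and BMTGMP without overlap. Set against a floor of 3 counts over the wtGMP group, Orm1 was at least 112-fold higher in LTearly (edgeR, adjusted p = 1.38e-05), at least 19.7-fold higher in LTlate (0.000863) and at least 11.1-fold higher in BMTGMP (0.00381). With only BMTGMP and wtGMP in the fit, Orm1 did not pass the filter on low counts and was not tested. Its near-identical neighbour Orm2 held 0% to 90.0% of the Orm1 count in the MLL-AF9 libraries and 20 counts in wtGMP replicate 4, so the split between these copies is uncertain. The hepatocyte markers Alb, Apoa1, Apob and Ttr summed to 0 to 14.9 CPM in wtGMP, 4.77 to 29.3 in LTearly, 0 to 4.73 in LTlate and 2.79 to 6.50 in BMTGMP, with Ttr at 0 in all wtGMP and LTearly libraries. Their part in the Orm1 level was not tested.

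The median log2 difference over the 10 genes was 7.52 in LTearly, 6.02 in LTlate and 5.27 in BMTGMP, and 7.11, 5.69 and 4.59 with Orm1 at its lower bound. Over all genes tested the median was 0.22, 0.00 and 0.07.

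**Figure D2:**
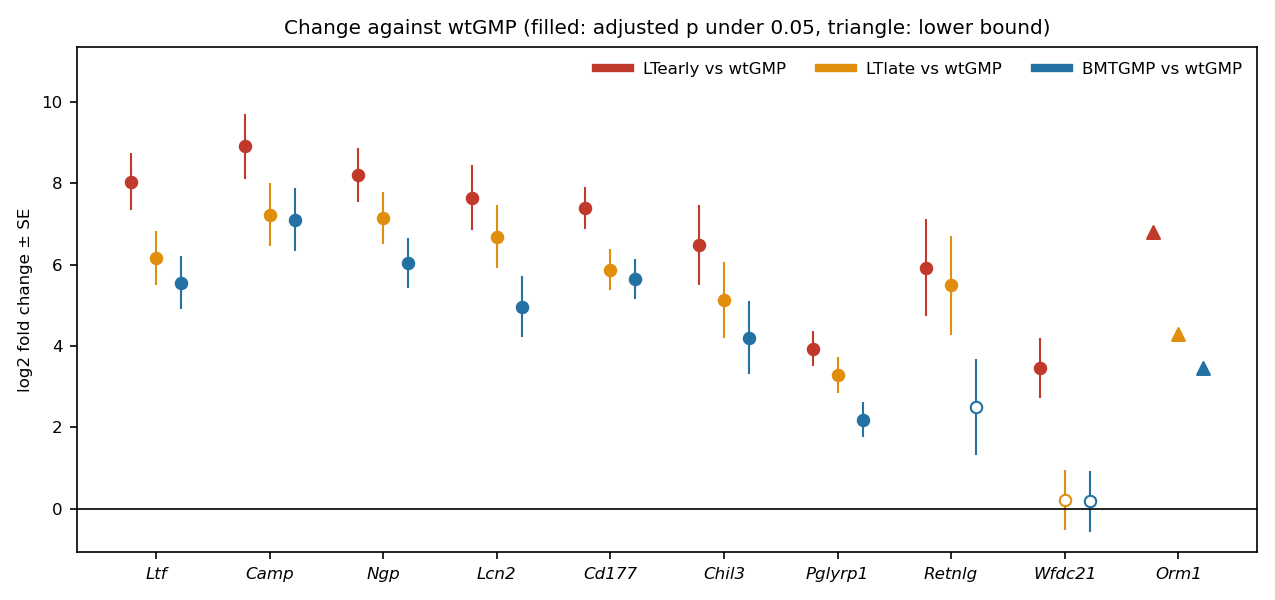
Log2 fold change against wtGMP ± SE for each gene in the 3 MLL-AF9 groups, filled where adjusted p is under 0.05, with triangles at the lower bound for Orm1, which had no counts in wtGMP. The open points are Retnlg in BMTGMP and Wfdc21 in LTlate and BMTGMP.

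Per length, the order of the genes differed between normal and leukaemic cells. In mean CPM per kilobase of transcript, LTearly was led by Ngp (3640) and Chil3 (3470), followed by Ltf (1270) and Camp (1120), and Orm1 was last at 25.4. Ngp and Chil3 also led in LTlate (1750 and 1360) and in BMTGMP (817 and 713). In wtGMP the leaders were Chil3 (38.5), Wfdc21 (24.3) and Pglyrp1 (23.1), and Ngp stood behind them at 12.6.

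Among the MLL-AF9 groups, LTearly stood above BMTGMP at most of the genes. Between LTearly and BMTGMP, 7 of 10 were called higher in LTearly (3.40% of all genes were): Ltf by 2.48 ± 0.59 (edgeR, adjusted p = 0.0347), Ngp by 2.16 ± 0.54 (0.0439), Lcn2 by 2.68 ± 0.65 (0.0373), Cd177 by 1.74 ± 0.42 (0.0299), Pglyrp1 by 1.75 ± 0.43 (0.0275), Wfdc21 by 3.28 ± 0.80 (0.031) and Orm1 by 3.22 ± 0.96 (0.0449). The differences of Camp (1.80 ± 0.59, adjusted p = 0.112), Chil3 (2.28 ± 0.89, 0.186) and Retnlg (3.42 ± 1.13, 0.118) were not called. At 9 of the 10 genes no LTearly library overlapped a BMTGMP library, against 7.78% of all genes, the exception being Retnlg. These calls lie close to the threshold. They numbered 3 without LTearly replicate 1, 0 without LTearly replicate 2, 1 without LTearly replicate 3, 1 without BMTGMP replicate 1 and 0 without BMTGMP replicate 4. Without LTearly replicate 2 the 7 genes kept log2 differences of 1.66 to 3.37 with adjusted p from 0.0508 to 0.0861, and without BMTGMP replicate 4 differences of 1.46 to 3.10 with adjusted p from 0.131 to 0.156. With only these 2 groups in the fit 3 were called, with no filter on low counts 2, with M2grLT3 counted as LTlate 1, and by DESeq2 9 (4.71% of the genes in the table).

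LTearly was also above LTlate in mean at each gene, but edgeR called 0 of 10 (0.117% of all genes were called higher in LTearly). At an unadjusted p under 0.05 there were 5, Camp, Cd177, Ltf, Orm1 and Wfdc21, against 6.82% of all genes tested. DESeq2 called 3 (0.865% of the genes in the table), Cd177 by 1.60 (adjusted p = 0.00252), Ltf by 1.96 (0.0246) and Wfdc21 by 3.34 (0.00016). Log2 differences by edgeR ran from 0.44 ± 0.98 at Retnlg to 3.25 ± 0.79 at Wfdc21 (adjusted p = 0.934 and 0.133). The libraries of LTearly and LTlate did not overlap at 8 of 10 genes, against 4.51% of all genes, and did overlap at Lcn2 and Retnlg. Wfdc21 was called when LTearly replicate 4 was left out (adjusted p = 0.0426), and Camp, Cd177 and Ltf were called when only these groups were fitted (adjusted p = 0.0231, 0.0362 and 0.0316).

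Between LTlate and BMTGMP edgeR called 0 of 10 (1.52% of all genes were called higher in LTlate), DESeq2 called 0 (1.85% of the genes in the table), and Lcn2, Pglyrp1 and Retnlg, 3 of 10, had an unadjusted p under 0.05, against 6.70% of all genes tested. Log2 differences ran from 0.03 ± 0.77 at Wfdc21 to 2.99 ± 1.14 at Retnlg (edgeR, adjusted p = 1.0 and 0.316). LTlate libraries lay above all BMTGMP libraries at Lcn2 and Retnlg, 2 of 10 genes, where 10.8% of all genes showed no overlap. Pglyrp1 was called without BMTGMP replicate 2 (1.85, adjusted p = 0.00376). In the order of the means, then, the neighbours LTearly and LTlate, and LTlate and BMTGMP, were not told apart at any of the 10 genes by edgeR fitted to all 14 libraries without a block, and BMTGMP and wtGMP were told apart at 8. With the replicate number as a block, Wfdc21 was called between LTearly and LTlate (adjusted p = 0.0382).

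**Figure D3:**
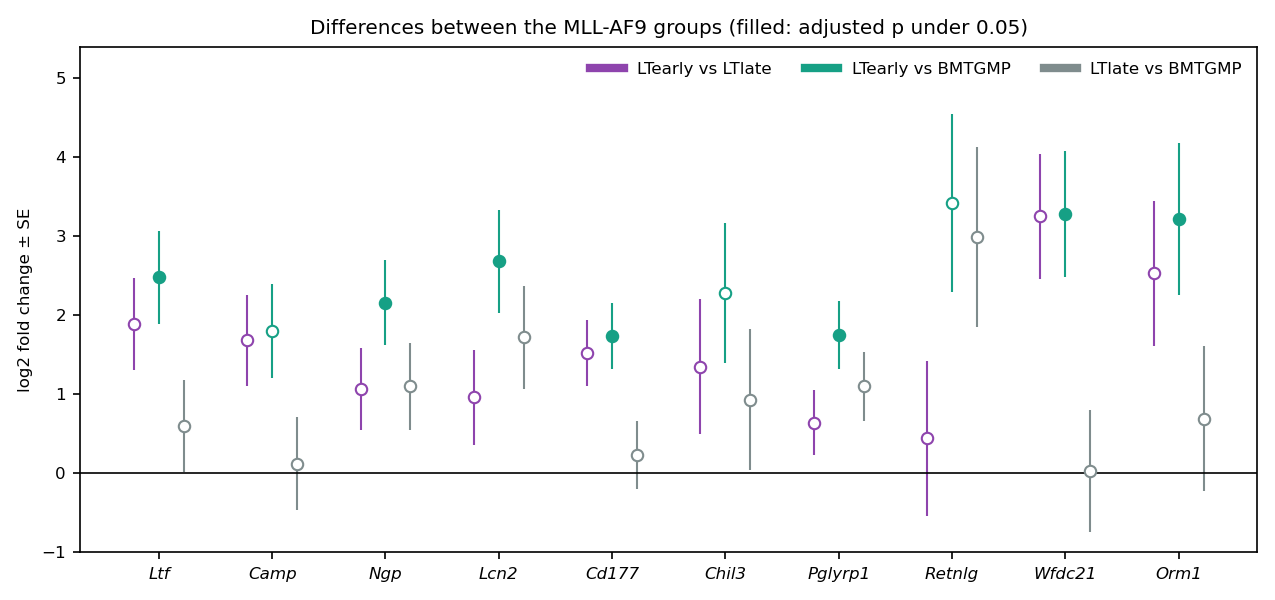
Log2 fold change ± SE between the MLL-AF9 groups for each gene, filled where adjusted p is under 0.05. The 7 filled points belong to LTearly against BMTGMP, and every point lies above 0.

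The libraries of BMTGMP, and largely those of LTlate, differed in step across the genes. BMTGMP replicate 2 was the highest of its group at 10 of 10 genes and BMTGMP replicate 1 the lowest at 8. LTlate replicate 2 was the highest at 9 of 10, all but Camp. In LTearly the order was mixed: replicate 3 was the highest at 6 genes and replicate 2 at 3, and replicate 4 was the lowest at 6. Replicate 4 was the highest at Chil3, and replicate 3 the lowest at Camp. BMTGMP replicate 2 was also the highest of the 14 libraries at Cebpe (222 CPM, against 41.5 and 77.3 in the other BMTGMP libraries), the gene of C/EBP epsilon. LTlate replicate 2 and LTearly replicate 3, by contrast, were the lowest of their groups at Cebpe (77.3 and 77.1 CPM). Over the 10 MLL-AF9 libraries, Pearson's r of log2 CPM between genes was highest for Cd177 and Wfdc21 (0.981) and lowest for Chil3 and Retnlg (0.558), and these points share libraries, groups and depth.

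Genes outside the list that followed it most closely were found by their mean r with the 10 genes over all 14 libraries. S100a9, which encodes a subunit of calprotectin, came first (0.936), followed by the lysosomal hydrolase gene Plbd1 (0.928), the integrin gene Itgb2l (0.927) and B430306N03Rik (0.923). S100a8 (0.916), the other calprotectin subunit, the calponin gene Cnn2 (0.914) and the secondary granule gene Olfm4 (0.914) came next. These 14 points share libraries and depth, and include the step between wtGMP and the other groups. Over the 10 MLL-AF9 libraries alone the mean r was 0.923 for S100a9, 0.919 for Plbd1, 0.916 for S100a8 and 0.901 for Itgb2l, and 0.813 for Cnn2. S100a9 itself had means of 43.8 ± 23.6 CPM in wtGMP (SD, n = 4), 8870 ± 3140 in LTearly (n = 4), 2380 ± 632 in LTlate (n = 3) and 1350 ± 1130 in BMTGMP (n = 3).

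Lists of other genes of neutrophil maturation place the 10 genes. For comparison, 11.1%, 7.53% and 4.41% of all genes were called higher than wtGMP in LTearly, LTlate and BMTGMP. Of 15 other specific and gelatinase granule genes, 13 were higher than wtGMP and 2 not called in LTearly, 13 and 2 in LTlate, and 9 higher, 1 lower (Slpi) and 5 not called in BMTGMP, with medians of 3.42, 2.90 and 1.85 on the log2 scale. Itgb2, the beta chain of the CD11b integrin, rose by 3.56 ± 0.20 in LTearly (edgeR, adjusted p = 9.86e-13), and Cybb, a membrane subunit of the NADPH oxidase, rose by 3.42 ± 0.20. Of 17 late neutrophil receptor and cytosolic genes tested, 16 were higher and 1 not called in LTearly, 9 and 8 in LTlate, and 6 and 11 in BMTGMP, with medians of 5.40, 3.35 and 2.53. Fpr2, a formyl peptide receptor, rose by 7.88 ± 0.89 in LTearly (adjusted p = 3.66e-07), and Itgb2l by 9.57 ± 0.85. Csf3r, the receptor for granulocyte colony-stimulating factor, was the 1 gene of that list called between LTearly and LTlate, higher in LTearly by 1.56 ± 0.24 (adjusted p = 0.00453).

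Primary granule genes did not share this pattern. Of 11, 1 was higher and 6 lower in LTearly (8.93% of all genes were called lower), 1 and 4 in LTlate (3.25%), and 1 lower and 10 not called in BMTGMP (2.17%), with medians of -1.07, -1.48 and -0.59. Mpo, which encodes myeloperoxidase, had 19180, 17940, 16000 and 16800 CPM in wtGMP and 561, 2018, 934 and 4774 CPM in LTearly. It had 247, 394 and 529 CPM in LTlate and 5728, 9019 and 8310 CPM in BMTGMP. All MLL-AF9 libraries were below all wtGMP libraries, and the LTlate libraries were the lowest. Mpo fell by 3.08 ± 0.60 in LTearly (edgeR, adjusted p = 0.00398) and by 5.49 ± 0.76 in LTlate (0.000816), and its difference of -1.19 ± 0.61 in BMTGMP was not called (0.321). Between LTlate and BMTGMP, Mpo was lower in LTlate, with a difference of -4.30 ± 0.73 (0.0128). Summed over the 11 primary granule genes, levels ran from 19700 to 23200 CPM in wtGMP, 2100 to 7740 in LTearly, 2210 to 2820 in LTlate and 8570 to 12900 in BMTGMP. Summed over the 10 secondary granule and late genes they ran from 75.0 to 185 CPM in wtGMP, 13700 to 18900 in LTearly, 3720 to 9730 in LTlate and 1230 to 6630 in BMTGMP. In all wtGMP and BMTGMP libraries the primary sum was the larger, and in all LTearly and LTlate libraries the secondary sum was. Mpo made up most of the primary sum in wtGMP and BMTGMP, with means of 17480 and 7686 CPM. In BMTGMP replicate 2, Mpo held 9019 CPM of a primary sum of 12900, against a secondary sum of 6630. Without Mpo, the primary sum of that library lies below its secondary sum. In the other libraries compared, the larger sum is the same without Mpo.

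**Figure D4:**
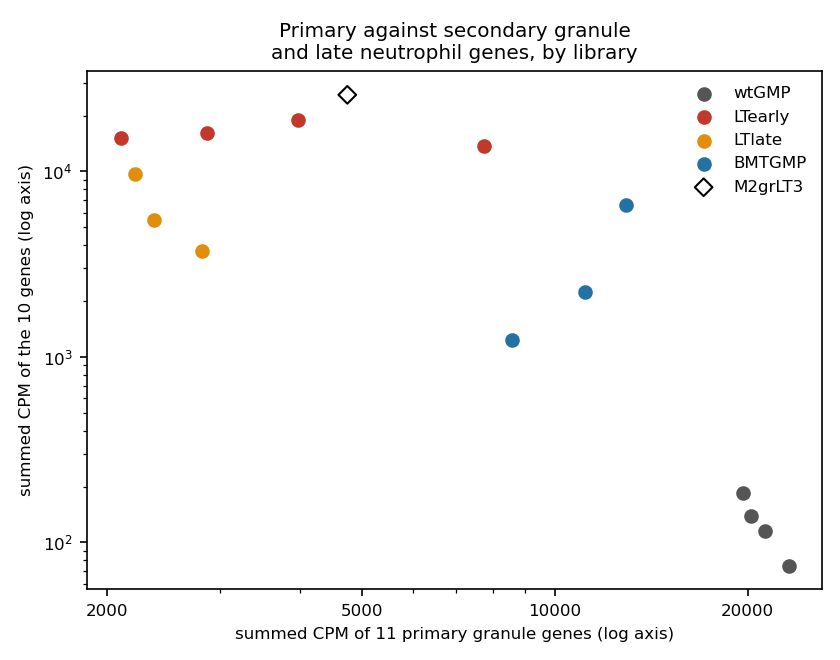
Summed CPM of the 10 secondary granule and late neutrophil genes against summed CPM of 11 primary granule genes, 1 point per library, both axes log. The wtGMP libraries lie at the lower right (75.0 to 185 CPM on the vertical axis), BMTGMP in between, and LTearly and LTlate at the left.

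**Figure D5:**
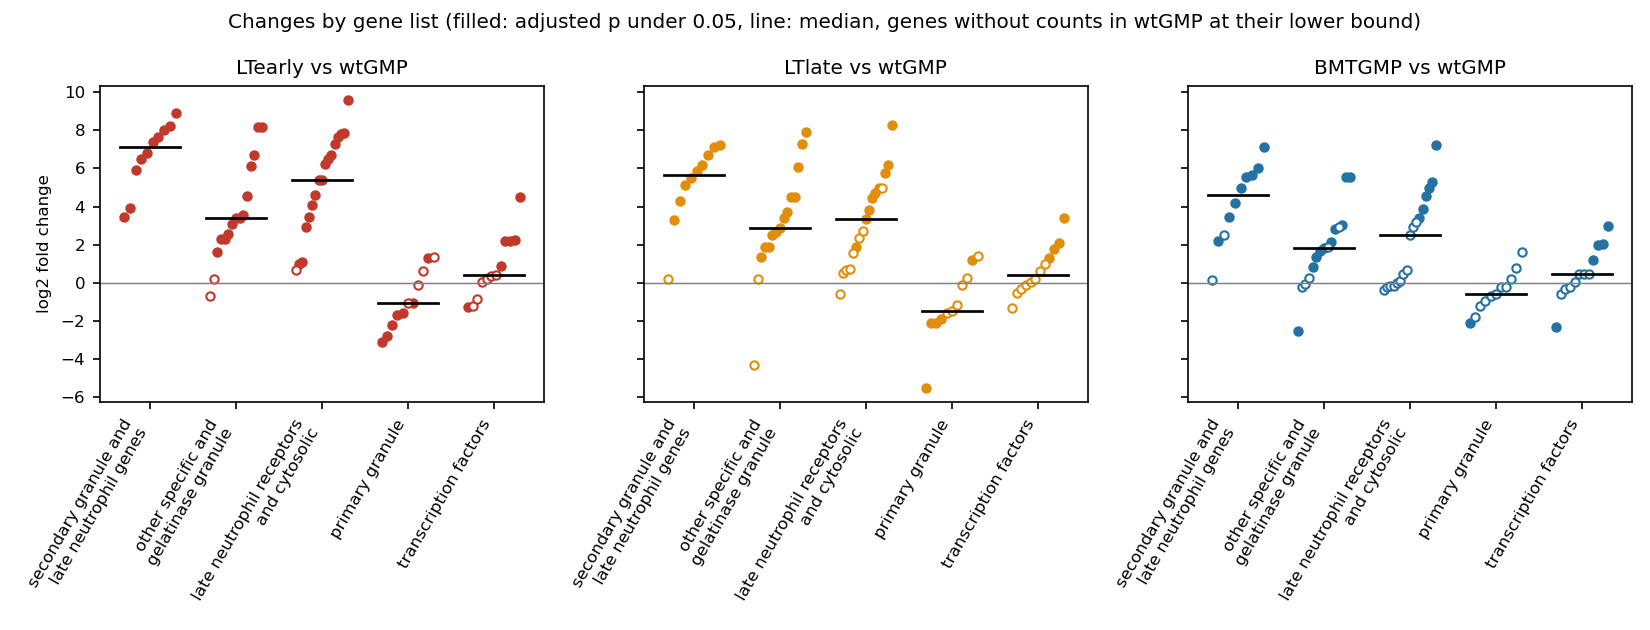
Log2 fold change against wtGMP of every gene tested in 5 lists, 1 panel per MLL-AF9 group, filled where adjusted p is under 0.05, with a line at the median and genes without counts in wtGMP at their lower bound. The 10 secondary granule and late genes have medians of 7.11, 5.69 and 4.59 there, and the primary granule genes medians of -1.07, -1.48 and -0.59.

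Of 12 granulocyte transcription factors, 5 were higher, 1 lower and 6 not called in LTearly. In LTlate 4 were higher and 8 not called, and in BMTGMP 4 were higher, 1 lower and 7 not called. Of all genes, 11.1%, 7.53% and 4.41% were called higher in these groups, and 8.93%, 3.25% and 2.17% lower. Cebpe had 28.1, 38.2, 19.5 and 29.45 CPM in wtGMP and 137, 155, 77.1 and 148 CPM in LTearly. It had 77.3, 119 and 94.5 CPM in LTlate and 41.5, 222 and 77.3 CPM in BMTGMP. No MLL-AF9 library overlapped wtGMP. Cebpe rose by 2.18 ± 0.43 in LTearly (edgeR, adjusted p = 0.00244), 1.76 ± 0.45 in LTlate (0.0205) and 1.99 ± 0.45 in BMTGMP (0.0149). Cebpb, another C/EBP gene, rose by 2.18 ± 0.30 in LTearly (1.56e-05), while Cebpa, which acts earlier in the lineage, fell by 1.26 ± 0.29 (0.00233). Gfi1, a repressor needed for neutrophil differentiation, rose in BMTGMP by 2.05 ± 0.32 (0.000334) and was lower in LTearly than in BMTGMP, with a difference of -1.66 ± 0.32 (0.00349).

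Genes of the depletion and of other cell types were measured in the same libraries. Itgam encodes CD11b, an antigen of the depletion, and its libraries ran from 31.1 to 76.2 CPM in wtGMP, 865 to 1713 in LTearly, 1074 to 1652 in LTlate and 413.5 to 539 in BMTGMP. It rose over wtGMP by 4.54 ± 0.27 in LTearly (edgeR, adjusted p = 4.25e-10), 4.50 ± 0.27 in LTlate (9.9e-10) and 3.05 ± 0.26 in BMTGMP (1.66e-07). Between LTearly and LTlate the difference of Itgam was 0.04 ± 0.25 (adjusted p = 0.977). Ly6g, another antigen of the depletion and a neutrophil marker, was not analysed here. The sum of 10 monocyte and macrophage markers ran from 599 to 665 CPM in wtGMP and from 587 to 1230 in LTearly, and from 704 to 843 in LTlate and 357 to 644 in BMTGMP, with C1qb at 0 in wtGMP and BMTGMP. Of the 9 of these markers tested, 3 were higher and 6 not called in LTearly, 3 and 6 in LTlate, and 1 and 8 in BMTGMP. The shares of all genes called higher were 11.1%, 7.53% and 4.41%. Adgre1, which encodes a macrophage antigen and is named here after its values were seen, had 6.33 to 21.7 CPM in wtGMP, 95.6 to 114 in LTearly, 68.7 to 87.7 in LTlate and 57.05 to 77.8 in BMTGMP. It rose over wtGMP by 2.96 ± 0.29, 2.57 ± 0.29 and 2.29 ± 0.29 in these groups (edgeR, adjusted p = 2.09e-08, 5.3e-07 and 5.25e-06), higher in every MLL-AF9 library, as at 8 of the 10 genes. Other markers of this list differed from Adgre1. The median log2 difference of the 9 markers tested was 0.92 in LTearly, 0.23 in LTlate and -0.28 in BMTGMP. In BMTGMP, Csf1r and Ccr2 lay below all wtGMP libraries and were not called (means of 81.0 and 97.7 against 185 and 191 CPM). Adgre1 alone lay above them there. Sums of the 10 markers of eosinophils, basophils and mast cells, in the same order of groups, ran from 171 to 285, 24.0 to 114, 129 to 361 and 12.1 to 20.0 CPM, with Epx, Prss34, Cpa3, Tpsb2 and Fcer1a at 0 in BMTGMP. Erythroid, B cell, T and NK cell and megakaryocyte markers each summed to at most 24.2 CPM in the 14 libraries. In wtGMP the markers at 0 included Epor, Cd79a, Pax5, Vpreb1, Cd3e, Cd3g, Klrb1c, Pf4 and Ppbp, and in LTearly they included Ncr1. The part of these cell types and of the depletion in the levels of the 10 genes was not tested. With every library thinned to the lowest depth, the calls of the 10 genes were 10, 9 and 8 of 10 against wtGMP, as without thinning.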

How the data were processed

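RNA of sorted mouse bone marrow was sequenced in 15 libraries with a sample, 14 of which were compared (wtGMP 4, LTearly 4, LTlate 3, BMTGMP 3). Per the file headers, the authors counted reads on RefSeq transcripts on mm9 and kept reads with as many as 100 hits. The submitters' processing notes name Bowtie 0.9.9.1. The deposited values are expected counts: 13.75% were not whole (tolerance 1e-06), they carry no scaling for depth or transcript length, and were rounded here. The table's 1 column without a sample was not used. Of 28847 transcripts, 26092 matched a symbol (25977 in a RefSeq table, 115 in GENCODE metadata), which left 3.5% to 4.2% of counts unmatched, and each gene took its transcript with the highest mean count.

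edgeR 4.0.16 under R 4.3.3 (limma 3.58.1) fitted a mean per group to 14542 genes kept by filterByExpr, with TMM scaling and the robust quasi-likelihood test, 2-sided, with a common biological coefficient of variation of 0.748. Recovery was checked on simulated data. Among 105 pairs of libraries 0 had identical counts. The SE was taken as the absolute log2 fold change divided by the root of the F statistic. Correlations used log2 CPM with a prior count of 2.

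The 10 genes and all lists were chosen with earlier results of these data known. Named genes are the 10, their paralogs and the gate and depletion genes, up to 4 genes with the smallest p of each list in a comparison, and the 8 genes most like the 10, and a gene named once may have its values given in the other comparisons. Some genes that this rule or the marker lists take in are not reported here. Alternatives were DESeq2 1.42.0, median-ratio size factors, no filter or 1 CPM in 3 libraries, a replicate block, M2grLT3 as LTearly or LTlate, only the groups compared, transcripts summed, thinning to the lowest depth, and leaving out each library. RefSeq promoters (GRCm38.p6) were used for sequence only, since the counts are on mm9.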

Additional observations from a re-analysis of the deposited data

Results flagged for a closer look

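Each gene with counts was examined in wtGMP and in LTearly, the groups of 4 libraries, for a library far from the others. Of these 19 sets of values, 2 had one. Chance gives about 1 in 20 for a single set, and the sets share libraries. Chil3 was at 130 CPM (129.8) in wtGMP replicate 3, where the gap to the next library took 0.841 of the range of the group. Camp was at 1380 CPM (1379) in LTearly replicate 2, with 0.847 of the range.

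The library M2grLT3, which has LTearly in its title and LTlate in its column name and entered no comparison, held the 10 genes above the highest wtGMP library at each of them. Its levels were 2640 CPM for Ltf, 548 for Camp, 4710 for Ngp and 686 for Lcn2. Cd177 was at 757 CPM, Chil3 at 15800, Pglyrp1 at 345, Retnlg at 181, Wfdc21 at 119 and Orm1 at 71.5. Chil3, Pglyrp1 and Orm1 were higher there than in any of the other 14 libraries. Ltf, Ngp, Lcn2, Cd177 and Wfdc21 lay within the range of LTearly and above every LTlate library. Camp lay between those groups, and Retnlg within the range of each. The 10 genes took 2.47% of its counts on the kept transcripts, against at most 1.86% in the other libraries. Outside the list, Olfm4 was at 37.9 CPM in M2grLT3, below every MLL-AF9 library compared. Cd34 was at 6.76 CPM there, below every LTearly and LTlate library.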

How the results depend on the processing

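Against wtGMP the number of the 10 genes called was 10 in LTearly under every setting tried. In LTlate it was 9, and 8 to 9 with a library left out. In BMTGMP it was 8, and 7 to 8 with a library left out. It was 6 with only the 2 groups compared, where Chil3 was lost and Orm1 did not pass the filter on low counts. It was 7 with M2grLT3 counted as LTlate, where Orm1 was lost (edgeR, adjusted p = 0.117). For LTearly against LTlate, where 0 were called, DESeq2 gave 3, the replicate block 1 (Wfdc21), only the 2 groups 3, and leaving out a library 0 to 1. For LTearly against BMTGMP, where 7 were called, no low-count filter gave 2, M2grLT3 counted as LTlate 1, only the 2 groups 3, and leaving out a library 0 to 7. For LTlate against BMTGMP leaving out a library gave 0 to 1.

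Single differences that changed sign were not called in either form. Wfdc21 in LTlate against wtGMP was -0.09 with the replicate block, -0.10 thinned, and -0.22 to 0.60 with a library left out. Wfdc21 in BMTGMP against wtGMP was -0.93 to 0.57 with a library left out. Wfdc21 in LTlate against BMTGMP was -0.13 with the block, -0.18 thinned, and -0.39 to 1.15 with a library left out. With M2grLT3 counted as LTlate, Chil3 and Orm1 in LTearly against LTlate were each -0.08, and Retnlg there was -0.73 to 0.80 with a library left out. The cause was not tested.

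The replicate numbers did not pair the libraries: of 18 pairs with the same number, 1 had a correlation of deviations over 0.1 (range -0.16 to 0.115). Libraries of LTearly and LTlate that share a title code gave -0.016 (D2) and 0.081 (LT3). With the replicate block the counts of called genes were 10, 9 and 8 against wtGMP, and 1, 6 and 0 among the MLL-AF9 groups. Between LTearly and BMTGMP, Camp was gained with the block, and Lcn2 and Orm1 were lost. Genes of the whole table called higher numbered 17 in LTearly against LTlate (0 with M2grLT3 counted as LTlate to 177 by DESeq2), 494 in LTearly against BMTGMP (267 without BMTGMP replicate 4 or with only the 2 groups, to 964 by DESeq2) and 221 in LTlate against BMTGMP (123 without LTlate replicate 2 to 378 by DESeq2). Depth limits Orm1 most, with 6 to 30 counts per library in BMTGMP.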
